A study of Mus musculus with 14 samples.

Results

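Methylated DNA of 8 mouse induced pluripotent stem (iPS) cell clones was compared by genotype of Aid. The clones were chosen by the labels and were 8 of the 14 samples of the series. Clones 967B2, 967B4, 979B1 and 979B3 were Aid+/+, and clones 979F1, 979F3, 981E1 and 981E4 were Aid-/-. All 8 carried a Nanog-GFP reporter, were at passage 6, were grown on gelatin, and had a mixed background of C57BL6, DBA and 129S4. How much of each strain a given clone carries is not given in the sources used here. The iPS cells had been made from mouse embryonic fibroblasts (MEFs) with retroviruses for reprogramming factors, and each clone descends from a picked colony, so that a clone differs from another by more than its genotype. The measure was MBD-seq, in which sheared DNA is captured by a methyl-CpG binding domain before sequencing, and a local pile of tags, called a peak, marks a stretch of methylated CpGs. Peaks on the 19 autosomes are described here by the genomic feature and the gene they lie in.

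DNA methylation in mammals lies mostly on the cytosine of CpG pairs. It is copied at cell division and is widely reset when somatic cells are reprogrammed. In a pluripotent cell, most CpGs are methylated outside CpG islands, promoters of pluripotency genes are unmethylated, and promoters of many germline genes are methylated.

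The lists held 65859 to 106408 autosomal peaks per clone, built from 6.65 to 15.92 M (mega) tags left after duplicates were removed. Between 46.31% and 59.57% of these tags lay in autosomal peaks. The file headers state no processing run. The clones were placed in 3 runs by the version of the peak caller MACS and the style of the run name, and runs A and B share a version and differ in the style of the name alone. Whether these are batches of library preparation or sequencing is not given in the sources used here. Run A held 967B2, 979F1, 979F3 and 981E4. Run B held 967B4, 979B1 and 979B3, and run C held 981E1 alone. Runs B and C therefore held 1 genotype each, and in run A the only Aid+/+ clone was 967B2. The labels say nothing of how clones were split into cultures, and p-values below measure the spread between clones only.

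The sequences on which the comparison turned are shown first, from the mm9 genome, plus strand, with each CpG in capitals and the other bases in lower case. D6Wsu116e is the centre of the only region whose tag count passed the test between genotypes (chr6:116192149-116192348). Cacna1c (chr6:119052406-119052605) and Iqsec3 (chr6:121489999-121490198) are centres of stretches with a peak in the Aid+/+ clones alone, in an intron and between genes. Each had the highest score in its weakest clone among stretches of its feature that held under both definitions given below. Gm12766 (chr7:35210017-35210216) and Gm11846 (chr4:12358580-12358779) are centres of such stretches between genes in the Aid-/- clones, ranked first and second in the same way.
D6Wsu116e: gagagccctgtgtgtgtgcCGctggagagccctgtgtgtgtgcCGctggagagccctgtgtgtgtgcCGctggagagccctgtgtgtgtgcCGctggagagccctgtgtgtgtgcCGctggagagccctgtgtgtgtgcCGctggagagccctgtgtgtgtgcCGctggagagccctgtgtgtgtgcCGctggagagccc
Cacna1c: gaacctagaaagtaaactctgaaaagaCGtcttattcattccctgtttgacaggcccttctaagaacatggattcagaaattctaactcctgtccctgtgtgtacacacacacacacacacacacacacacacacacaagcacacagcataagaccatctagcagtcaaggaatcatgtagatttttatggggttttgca
Iqsec3: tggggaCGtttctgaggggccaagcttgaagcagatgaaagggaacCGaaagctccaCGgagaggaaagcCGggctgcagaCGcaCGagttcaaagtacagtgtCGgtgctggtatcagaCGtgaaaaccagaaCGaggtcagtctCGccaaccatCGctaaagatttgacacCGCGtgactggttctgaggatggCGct
Gm12766: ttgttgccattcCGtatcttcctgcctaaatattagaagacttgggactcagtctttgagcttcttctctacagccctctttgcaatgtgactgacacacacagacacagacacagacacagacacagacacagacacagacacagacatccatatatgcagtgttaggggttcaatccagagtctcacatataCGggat
Gm11846: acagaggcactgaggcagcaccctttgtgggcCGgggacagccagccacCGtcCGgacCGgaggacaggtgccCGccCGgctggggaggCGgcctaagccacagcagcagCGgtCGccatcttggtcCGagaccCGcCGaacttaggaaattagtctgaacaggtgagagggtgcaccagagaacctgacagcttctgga
The D6Wsu116e stretch repeats a unit of 24 bases and holds 8 CpGs in the 200 bases shown. Cacna1c and Gm12766 hold few CpGs and a short tandem repeat each, of a 2-base and a 6-base unit. Iqsec3 and Gm11846 hold 14 and 12 CpGs with no such repeat.

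The first question was whether the makeup of the methylated DNA differed. A peak was given to the feature that held its summit, with promoters set as 1000 bp before to 500 bp after a transcript start. Peaks between genes made up 44.6 ± 0.558% of the list in Aid+/+ clones and 44.4 ± 0.719% in Aid-/- clones (SD, n = 4 each; exact two-sided permutation test, p = 0.629). Intron peaks made up 30.8 ± 1.74% and 29.9 ± 1.58% (exact p = 0.429), and exon peaks 18.1 ± 0.891% and 18.5 ± 0.336% (exact p = 0.314). Promoter peaks made up 6.49 ± 0.773% and 7.24 ± 0.878% (exact p = 0.286; 0.571 after Benjamini-Hochberg (BH) adjustment over the 4 features). Of all autosomal bases, 2.66% are in exons and 3.23% in promoters, so both held a larger share of peaks than of bases in each genotype. The smallest p that 4 against 4 clones allow is 0.0286.

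The clones with the highest promoter shares were those of run A. The promoter share was 7.65% in 967B2, against 6.17%, 6.13% and 6.03% in the other Aid+/+ clones. It was 7.24%, 7.09% and 8.39% in 979F1, 979F3 and 981E4, which share run A with 967B2, and 6.26% in 981E1. The same clones were highest at CpG-rich promoters, the CpG island class that is mostly unmethylated in pluripotent cells. Of the 9913 high-CpG promoters of protein-coding genes, 5.84%, 1.08%, 1.6% and 1.56% had a peak in 967B2, 967B4, 979B1 and 979B3. In 979F1, 979F3, 981E1 and 981E4 the shares were 5.12%, 4.51%, 1.49% and 8.12%. All 4 clones of run A lay above all 4 others, and the genotypes overlapped (exact p = 0.343). Intermediate-CpG promoters (4155) had a peak in 17.3 ± 1.43% and 19.4 ± 1.87% of cases (exact p = 0.143), and low-CpG promoters (7350) in 4.73 ± 0.892% and 4.07 ± 0.911% (exact p = 0.429). With 967B2 left out, the mean share of high-CpG promoters was 3.4 percentage points higher in Aid-/- clones, and within run A the mean of the 3 Aid-/- clones was 0.0773 points above 967B2, its only Aid+/+ clone, with no test.

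**Figure D1:**
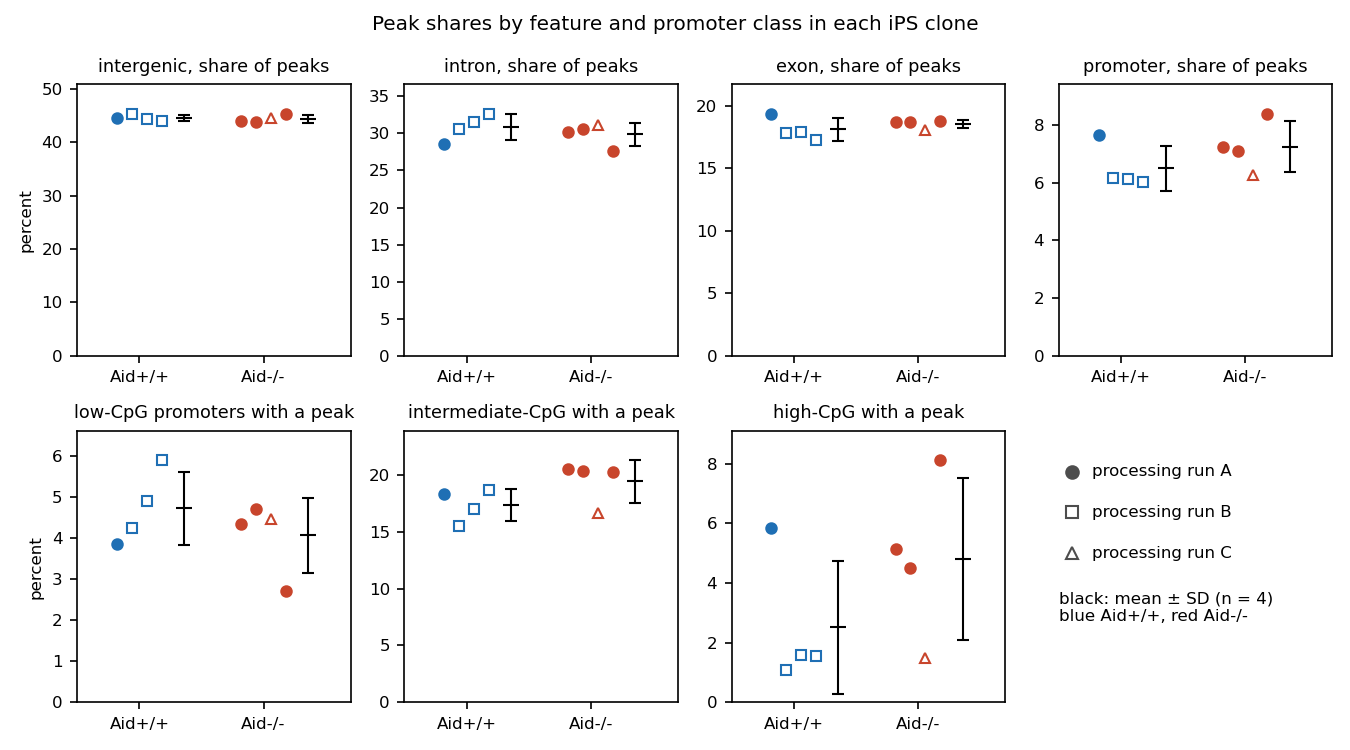
Each panel plots a percentage per clone, for Aid+/+ clones in blue and Aid-/- clones in red, with the shape of the point giving the processing run and black marks giving the mean ± SD of 4 clones. In the panel of high-CpG promoters the 4 clones of run A sit between 4.51% and 8.12% and the other 4 between 1.08% and 1.6%, in both genotypes.

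By chromosome, no autosome passed the test after adjustment over 19 autosomes. The smallest possible exact p, 0.0286, is too large for a single autosome to pass that adjustment, or for a single feature to pass its own. The adjusted values therefore cannot decide the question. The lowest exact p was 0.114, for chromosome 19, which held 2.89 ± 0.037% of peaks in Aid+/+ clones and 2.94 ± 0.0294% in Aid-/- clones (BH-adjusted p = 0.679). The median GC content of peaks was 49.5 ± 0.636% and 50.1 ± 0.355% (exact p = 0.229), with 2.78 ± 0.22 and 2.93 ± 0.112 CpGs per 100 bp (exact p = 0.314). Before adjustment as well, no feature, autosome or composition measure had an exact p under 0.05, and the clones of the genotypes overlapped in each.

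Stretches present in every clone of a genotype and overlapped by no peak of the other are called differentially methylated regions (DMRs) here, and stretches present in all 8 clones commonly methylated regions (CMRs), after the study's definition. The rule uses presence and absence alone and gives no p-value. Of 61635 autosomal stretches common to the Aid+/+ clones, 256 were DMRs (0.415%), and of 56269 common to the Aid-/- clones, 57 were (0.101%). Of these, 221 and 46 held also when whole merged regions were compared, and 19 and 6 were shorter than 50 bp. The study used a modified overlap method, and its counts differ from these. Per 1000 stretches, Aid+/+ DMRs numbered 4.82 at promoters, 2.7 in exons, 4.7 in introns and 4.28 between genes. The corresponding rates of Aid-/- DMRs were 1.61, 0.676, 0.873 and 1.15. Exons thus had the lowest rate in both directions. The promoter counts were only 19 and 6. By chromosome, the Aid+/+ rate ran from 1.74 per 1000 on chromosome 19 to 7.07 on chromosome 7. Of 258 windows of 10 Mb, the highest rates were 23 per 1000 on chromosome 9 at 50 to 60 Mb (5 of 217) and 19.2 on chromosome 7 at 30 to 40 Mb (8 of 416). The count of Aid+/+ DMRs rose to 1583 without 967B2, and that of Aid-/- DMRs rose to 404 without 981E1.

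**Figure D2:**
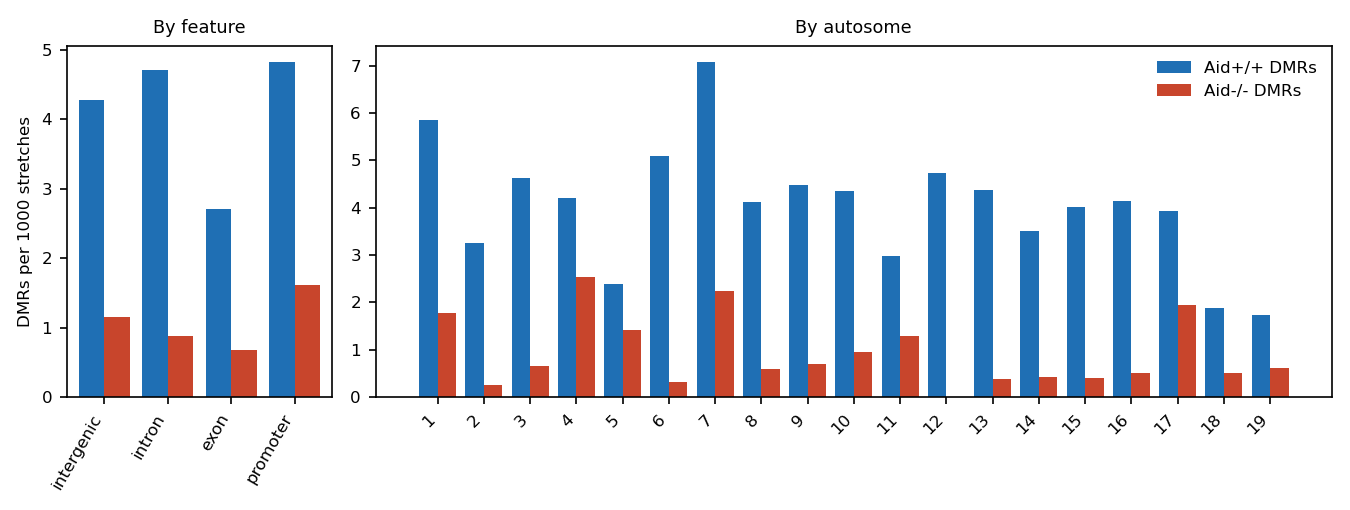
Bars give DMRs per 1000 stretches common to the clones of a genotype, blue for Aid+/+ and red for Aid-/-, by feature on the left and by autosome on the right (the panels have separate scales). The rate of Aid+/+ DMRs runs from 1.74 on chromosome 19 to 7.07 on chromosome 7.

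DMRs were weak and short. The carrying peaks of Aid+/+ DMRs had a median of 19, 20, 23 and 22 tags in 967B2, 967B4, 979B1 and 979B3, and those of Aid-/- DMRs 18, 16, 13 and 26 tags in 979F1, 979F3, 981E1 and 981E4. At CMRs the medians were 44 to 82 tags. In 72.7% of Aid+/+ DMRs and 84.2% of Aid-/- DMRs, the weakest carrying peak held fewer than 20 tags. The median length was 335 and 382 bp, against 499 bp for CMRs. The 2 kinds differed in base composition: the median GC content was 49.1% for Aid+/+ DMRs, 50.9% for CMRs and 60.5% for Aid-/- DMRs. CpGs per 100 bp followed the same order, with 2.77, 3.47 and 5.1. Exon DMRs of the Aid+/+ clones had a GC content of 53.4%, those of the Aid-/- clones 62.6%, and the order held at promoters as well (50.3% and 58.0%). The 3 run A clones among the Aid-/- clones are also those with more peaks at CpG-rich promoters, and the part of the run in this difference was not tested.

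Of the 19 Aid+/+ promoter DMRs, 15 held also when whole merged regions were compared. The promoter of Gm13036, a pseudogene on chromosome 4, had the most tags among these 15, with 116, 114, 238 and 150 in 967B2, 967B4, 979B1 and 979B3. The promoter DMR of Usp7, a deubiquitinase, was carried by peaks of 18, 17, 22 and 24 tags in the same order. Tead3, a transcription factor of the Hippo pathway, had 22, 26, 32 and 29 tags. Thrap3, a splicing and transcription cofactor, had 30, 30, 31 and 28 tags. Others lay in or near Ttll3 (a tubulin-modifying enzyme), Hps5 (a factor in the making of lysosome-related organelles), Slamf6 (a lymphocyte receptor) and F13b (a coagulation factor subunit). Further ones lay in or near Wfdc6b, Gm15694, Gm7929, Ccdc24, Spnb5 and Ccdc38. All of these were carried by 13 to 50 tags per clone. The stretches named for Wfdc6b and Gm7929 lay 3420 and 12895 bp from these genes. They were named by the nearest gene and lie outside its promoter as set here. Among Aid-/- DMRs, 3 of 6 at promoters held under both definitions. They lay at Dctn6, a dynactin subunit (16, 15, 16 and 26 tags in 979F1, 979F3, 981E1 and 981E4), and, as 2 neighbouring stretches carried by 14 to 30 tags, near Gm20523.

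In exons, the Aid+/+ DMRs with the most significant carrying peaks lay in Myo1e, a membrane-associated myosin (19, 25, 33 and 19 tags), and Sdc2, the cell-surface proteoglycan syndecan 2 (20, 16, 25 and 18 tags). Smad2, Sspo and Rfx8 followed, with 13 to 22 tags per clone. The Aid-/- exon DMRs were led by Obsl1, a cytoskeletal adaptor, with 31, 50, 27 and 38 tags. Pcbp4 (an RNA-binding protein), Dll3 (a Notch ligand), Mos (the kinase of oocyte maturation) and Src (a tyrosine kinase) followed with 10 to 29 tags. In introns, Cacna1c, the pore-forming subunit of an L-type calcium channel, had the Aid+/+ DMR with the highest score in its weakest clone among those that held under both definitions, with 62, 46, 33 and 37 tags. Ttc29 and Chst1, a sulfotransferase, had 19 to 34 tags. Intron DMRs of the Aid-/- clones were led by Scp2, the sterol carrier protein (19, 13, 19 and 18 tags), Kcnk3, a potassium channel (31, 28, 13 and 43 tags), and Lsamp, a neural adhesion protein (25, 22, 15 and 29 tags). Between genes, the Aid+/+ DMRs nearest Iqsec3, Ceacam14 and Gm16340 had 56, 34, 51 and 24 tags, 36, 52, 35 and 21 tags, and 19, 26, 24 and 25 tags. The Gm12766 stretch of the Aid-/- clones had 49, 25, 24 and 63 tags, and that near Gm11846 had 19, 22, 18 and 27. The Cacna1c and Gm12766 stretches held only 0.31 and 0.45 CpGs per 100 bp, against a median of 3.47 for CMRs. Whether peaks with so few CpGs mark methylated CpGs was not tested. All genes named here are listed by rank and were not tested as a group.

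The other samples of the series show where the DMRs have a listed peak in cells that the rule did not use. Of the Aid+/+ DMRs, 4.69%, 7.03% and 4.3% had a peak in the 3 Aid+/+ MEF cultures. The corresponding shares of Aid-/- DMRs were 70.2%, 73.7% and 61.4%, and those of CMRs 67.8%, 75.9% and 47.9%. The shares of Aid-/- DMRs were thus near those of CMRs in MEF cultures 1 and 2 and above them in MEF culture 3. The shares of Aid+/+ DMRs were far below those of CMRs in all 3. The MEF lists held 33500 to 54953 autosomal peaks, fewer than any clone's. The C57BL6 ES line had a peak at 53.5% of Aid+/+ DMRs, 89.5% of Aid-/- DMRs and 99% of CMRs. In the ES lines of strain 129SV and 129Ola the shares were 15.2% and 5.86% of Aid+/+ DMRs and 21.1% and 7.02% of Aid-/- DMRs, with CMRs at 75% and 49.4%. These 2 ES lists held 56045 and 31650 autosomal peaks against 101951 in the C57BL6 line, and the part of list length in the MEF and ES shares was not tested.

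**Figure D3:**
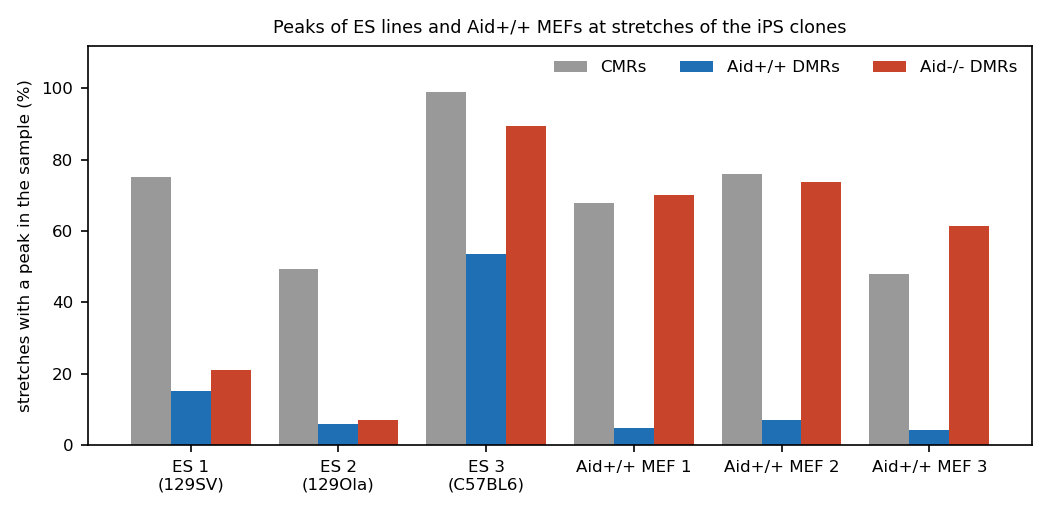
Bars give the percentage of CMRs (grey), Aid+/+ DMRs (blue) and Aid-/- DMRs (red) of the iPS clones that a peak of each ES line or MEF culture overlaps. In the 3 MEF cultures, Aid+/+ DMRs are at 4.3% to 7.03%, Aid-/- DMRs at 61.4% to 73.7% and CMRs at 47.9% to 75.9%.

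Tag counts were then compared at the 48078 regions with a peak in all 8 clones, with the quasi-likelihood test of edgeR and BH adjustment. The test called 1 region lower in the Aid-/- clones (0.00208%) and 0 higher. At an unadjusted p under 0.05, 731 were lower (1.52%) and 1004 higher (2.09%), and the clones of the genotypes did not overlap at 661 lower (1.37%) and 460 higher regions (0.957%). DESeq2 called 24 regions in all. The median log2 fold change was near 0 in every feature, at 0.02 for promoters, 0.03 for exons, 0 for introns and -0.02 between genes. In exons, 80 regions were lower (1.03%) and 191 higher (2.45%) at the unadjusted threshold, and between genes 427 were lower (1.91%) and 375 higher (1.67%).

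The region that passed lay in an intron of D6Wsu116e (chr6:116191600-116192896). It held 279, 308, 248 and 158 tags in 967B2, 967B4, 979B1 and 979B3, and 65, 47, 48 and 43 tags in 979F1, 979F3, 981E1 and 981E4. Every Aid+/+ clone was above every Aid-/- clone, with 43.3 ± 9.12 against 12.1 ± 2.07 tags per M (SD, n = 4 each). Here M counts the clone's tags in the tested regions after scaling, not all its filtered tags. The log2 fold change was -1.84 (SE 0.20, edgeR adjusted p = 0.00554). All 8 clones had a peak there, so that the difference was one of tags and not of presence. A tandem repeat of 257 bp with a 24-base unit, part of the sequence printed above, runs through it. The adjusted p was 0.0841 with the clone series as a block and 0.102 with peak length as an offset, 0.0782 without 979F3 and 0.0521 without 981E4. Within run A alone the log2 fold change was -1.98 (edgeR adjusted p = 0.082), and limma on the log2 fold enrichment over the local background gave -0.50 (adjusted p = 1.0).

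Next by p were regions that did not pass the threshold after adjustment. A region near Gm5077 (chr6:124588866-124589536), held 196, 75, 124 and 83 tags against 35, 18, 18 and 31 (log2 fold change -1.78, SE 0.29, edgeR adjusted p = 0.131). On chromosome 16, a region 1.24 Mb from Zpld1, the nearest gene, held 68, 73, 105 and 89 tags against 20, 14, 17 and 17 (log2 fold change -1.86, SE 0.27, edgeR adjusted p = 0.0577). The remaining 3 lay among vomeronasal receptor genes on chromosome 7. The region 10.2 kb from Vmn1r91 held 220, 229, 214 and 189 tags against 93, 59, 58 and 68 (log2 fold change -1.19, SE 0.17, edgeR adjusted p = 0.0577). The region 5.88 kb from V1rd19 held 214, 180, 219 and 162 tags against 77, 41, 54 and 66 (log2 fold change -1.26, SE 0.19, edgeR adjusted p = 0.0577). That near Vmn1r112 held 236, 238, 232 and 160 tags against 74, 70, 65 and 105 (log2 fold change -1.01, SE 0.18, edgeR adjusted p = 0.28).

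Vomeronasal type 1 receptors are pheromone receptors of sensory neurons, encoded by a large family of clustered and closely similar genes. On chromosome 7 as a whole, 158 of 3072 regions were lower at an unadjusted p under 0.05 (5.14%), the highest share of any autosome, and 57 were higher (1.86%). Between 20 and 30 Mb, 86 of 346 regions were lower (24.9%) and 5 higher (1.45%), the highest share of lower regions among 255 windows of 10 Mb. The median log2 fold change of the window was -0.17. Each clone's median log2 tag level over the window, relative to the mean of the Aid+/+ clones, was 0.10, 0.01, -0.03 and -0.03 in the Aid+/+ clones and -0.17, -0.18, -0.18 and -0.21 in the Aid-/- clones. All Aid-/- clones, of 2 clone series and 2 runs, were therefore below all Aid+/+ clones. The window was picked from 255 by the same tag counts, so this order is partly built in and is no independent test. On the scale of fold enrichment over the local background, however, the median log2 difference of the window was only -0.03, and that of the region near Vmn1r112 was 0.21, in the opposite direction. Tags from near-identical gene copies may be placed on any of them, and values of single receptor genes are uncertain for that reason.

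**Figure D4:**
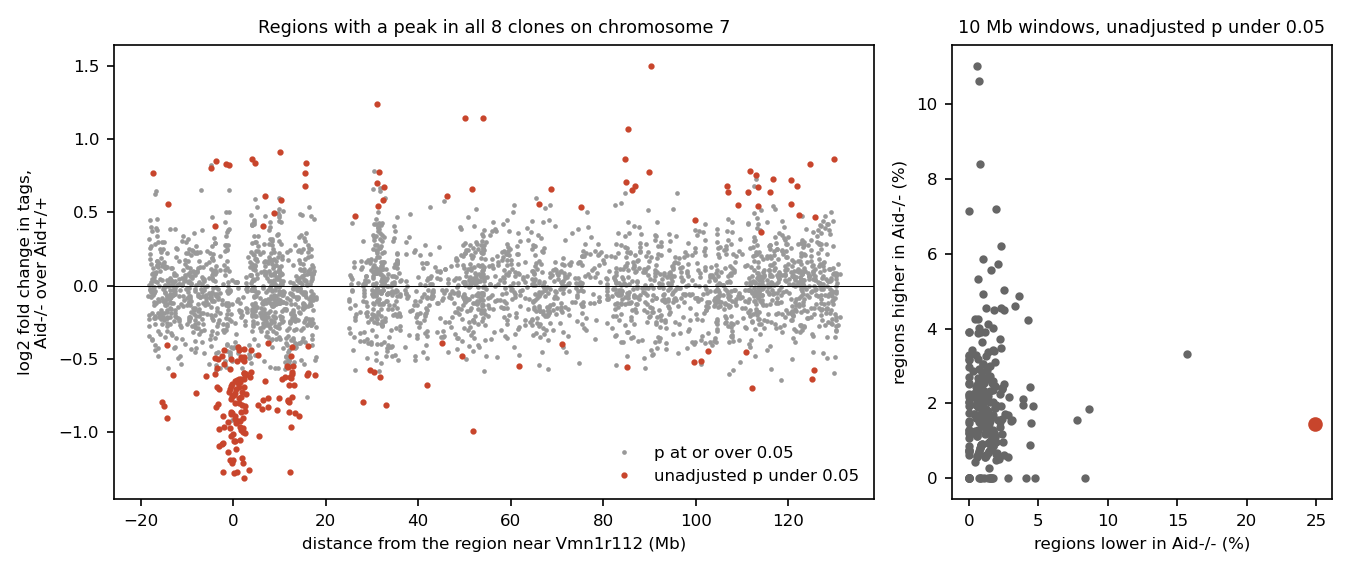
The left panel plots the log2 fold change in tags, Aid-/- over Aid+/+, of each chromosome 7 region with a peak in all 8 clones against its distance in Mb from the region near Vmn1r112, with unadjusted p under 0.05 in red. The right panel plots, for each of 255 windows of 10 Mb, the share of regions higher against the share lower in the Aid-/- clones, with the window at 20 to 30 Mb of chromosome 7 in red at 24.9% lower and 1.45% higher.

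Other windows stood out less, but both neighbours of the 20 to 30 Mb window of chromosome 7 ranked high for lower regions. At 30 to 40 Mb, 28 of 325 regions were lower (8.62%) and 6 higher. At 10 to 20 Mb, 20 of 256 were lower (7.81%) and 4 higher. Between 0 and 10 Mb of chromosome 8, 19 of 121 regions were lower (15.7%) and 4 higher. The highest shares of higher regions were 11% on chromosome 1 at 170 to 180 Mb (19 of 173) and 10.6% on chromosome 5 at 20 to 30 Mb (15 of 141).

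Tandem repeats were counted in all regions after the repeat at D6Wsu116e had been seen. An exact tandem repeat of at least 50 bp, with a unit of 2 to 60 bases, was present in 3685 of the 48078 regions (7.66%). Among regions lower in the Aid-/- clones at an unadjusted p under 0.05, 49 of 731 held one (6.7%). Among those higher, 215 of 1004 did (21.4%). The median length of the regions was 1024 bp in all and 1039 bp in both of these groups. Repeats were less frequent in the shorter DMRs, at 1.17% of Aid+/+ and 3.51% of Aid-/- DMRs, against 4.98% of CMRs. These shares are a description of the regions and were not tested.

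By gene, tags of peaks with a summit in the promoter were summed for 5243 genes. The test called 1 promoter lower (0.0191%) and 0 higher, with 83 lower (1.58%) and 79 higher (1.51%) at an unadjusted p under 0.05, and DESeq2 called 25. The clones of the genotypes did not overlap at 84 lower (1.6%) and 61 higher promoters (1.16%). The promoter called was that of Gm13036 (chr4:146026177-146026924, plus strand), which is also the DMR named above. No peak was listed for it in any Aid-/- clone, and the edgeR adjusted p was 0.039. The promoter was past the threshold in 4 of 17 alternatives, among them the fit without 967B2, and the adjusted p was 0.05 to 0.18 without any other single clone and 0.435 within run A. Gm13036 is a pseudogene, and tags could be shared with similar copies. Angpt2, a ligand of the Tie2 receptor of blood vessels, came next (edgeR adjusted p = 0.132). Its promoter held no summit in the Aid+/+ clones and 35, 106, 66 and 57 tags in 979F1, 979F3, 981E1 and 981E4. It passed the tag filter through the Aid-/- clones alone. All 8 clones nevertheless had a peak near the start of the gene, and the genotypes differed in where its summit lay. The summit closest to the start lay 924 bp or more after it in the Aid+/+ clones and 462 to 476 bp after it in the Aid-/- clones, on either side of the 500 bp limit. The promoter of n-R5s136, a copy of the 5S ribosomal RNA gene, held 215, 198, 115 and 138 tags against 284, 326, 187 and 325 (log2 fold change 1.11, SE 0.23, edgeR adjusted p = 1.0), and tags could be shared with its copies.

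In gene bodies outside promoters, 13128 genes were tested, and edgeR called 0 at an adjusted p under 0.05. At an unadjusted p under 0.05, 144 were lower (1.1%) and 244 higher (1.86%), and DESeq2 called 15. The genotypes did not overlap at 153 lower (1.17%) and 181 higher gene bodies (1.38%). The lowest p belonged to Tcte1, a testis gene of the t complex, with 194, 173, 212 and 211 tags against 247, 237, 166 and 195 (log2 fold change 0.55, SE 0.11, edgeR adjusted p = 1.0). Synj2, a phosphoinositide phosphatase, had 516, 580, 621 and 596 tags against 758, 677, 471 and 531 (log2 fold change 0.52, SE 0.11, edgeR adjusted p = 1.0). Raw tags of these genes overlapped between genotypes, and the fold changes are those after scaling for the tags of each clone. The body of Vmn1r112 had 385, 344, 351 and 291 tags against 138, 108, 102 and 165 (log2 fold change -0.95, SE 0.20, edgeR adjusted p = 1.0).

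Gene classes were read as the share of members with a promoter peak, beside 15.2 ± 1.2% and 15.5 ± 0.999% over all 34653 autosomal genes. Germline genes are known for silencing by promoter methylation in somatic cells. Of 23, 19, 10, 14 and 15 had a promoter peak in 967B2, 967B4, 979B1 and 979B3, and 17, 20, 16 and 19 in 979F1, 979F3, 981E1 and 981E4. Of 19 tested promoters, 0 were lower and 3 higher at an unadjusted p under 0.05 (1.58% and 1.51% of all promoters tested), with a median log2 fold change of 0.70 beside -0.05 over all promoters tested, and none passed after adjustment. Hormad2, a meiotic chromosome protein, had 54, 31, 43 and 31 promoter tags against 67, 53, 26 and 61 (log2 fold change 0.73, SE 0.26, edgeR adjusted p = 1.0). Piwil1, a piRNA-binding protein of the testis, had 81, 50, 79 and 60 against 83, 104, 42 and 88 (log2 fold change 0.59, SE 0.22, edgeR adjusted p = 1.0). The Aid+/+ clone of run A, 967B2, had as many methylated germline promoters as the Aid-/- clones.

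Lists of developmental regulators showed a like order of clones. Of 40 Hox entries, 10, 1, 2 and 2 had a promoter peak in the Aid+/+ clones and 9, 4, 1 and 13 in the Aid-/- clones. Of 9 Pax genes, 2, 0, 1 and 0 had one in the Aid+/+ clones and 3, 3, 1 and 6 in the Aid-/- clones. Pluripotency genes (25) had 7, 2, 2 and 2 against 7, 5, 3 and 8. In each of these lists the higher counts were those of 967B2, 979F1, 979F3 and 981E4. Promoter peaks of Hoxd11 were listed with 20, 17 and 49 tags in 979F1, 979F3 and 981E4 and in no other clone, and those of Mbd3, a methyl-CpG binding protein, with 26, 29 and 39 tags in the same clones.

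Imprinted genes had promoter peaks in both genotypes. Of 16 maternally methylated genes, 10 to 11 had a peak in every clone, and of 5 paternally methylated genes, 3 to 5 did. Meg3, a noncoding RNA of the Dlk1 region, had 271, 229, 280 and 203 promoter tags against 189, 166, 125 and 149 (log2 fold change -0.27, SE 0.12, edgeR adjusted p = 1.0), and 0 promoters of these lists passed at an unadjusted p under 0.05. Grb10, a maternally methylated growth regulator, had 48, 63, 498 and 299 tags in its body in the Aid+/+ clones and 64, 67, 80 and 56 in the Aid-/- clones, so that only 979B1 and 979B3 were high. For Airn, a promoter peak was listed in 979B1 alone, with 438 tags.

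Genes of the methylation machinery (16) had a promoter peak in 34.4 ± 3.61% and 35.9 ± 5.98%. Dnmt3a, a de novo methyltransferase, had 123, 88, 124 and 114 promoter tags against 71, 91, 53 and 59 (log2 fold change -0.34, SE 0.17, edgeR adjusted p = 1.0). Immunoglobulin gene segments (481) had a promoter peak in 5.72 ± 1.08% and 4.63 ± 0.547%.

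Large receptor and factor families had few promoter peaks in both genotypes. Olfactory receptor genes (1243) had one in 2.53 ± 0.374% and 2.39 ± 0.551% of cases, and vomeronasal receptor genes (325) in 0.538 ± 0.154% and 0.308%. Zinc finger (Zfp) genes (341) had one in 11.1 ± 0.733% and 10.8 ± 0.808%. Zfp114 had 95, 105, 118 and 78 promoter tags against 61, 38, 42 and 48 (log2 fold change -0.69, SE 0.20, edgeR adjusted p = 1.0). Pseudogenes (4055) had a promoter peak in 24.7 ± 1.56% and 23.6 ± 1.81%, more often than protein-coding genes, with 15.9 ± 1.51% and 16.9 ± 1.29%.

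The identity of the clones was read from promoters of marker genes. Of the pluripotency markers, Nanog, Dppa3, Zfp42, Tdgf1, Dppa5a and Fbxo15 had a promoter peak in 0 of the 8 clones. In the 3 MEF cultures, a promoter peak was listed for Nanog in 2, for Tdgf1 in 1, and for Dppa3, Zfp42, Dppa5a and Fbxo15 in 0. Absence of a peak at Dppa3, Zfp42, Dppa5a and Fbxo15 therefore does not tell the clones from fibroblasts. Utf1 had a promoter peak in 1 Aid+/+ and 2 Aid-/- clones. Pou5f1, which encodes Oct3/4, had one in all 8 clones and in none of the ES lines or MEF cultures. Pyrosequencing by the study, however, found the Oct3/4 promoter hypomethylated in iPS cells of both genotypes. Peaks in and at Pou5f1 held 87, 225, 104 and 60 tags in the Aid+/+ clones and 39, 87, 96 and 53 in the Aid-/- clones. Sox2 held 1151, 857, 250 and 93 against 402, 275, 61 and 343 tags. Klf4 held 139, 146, 183 and 89 against 33, 366, 33 and 131, and Myc 633, 1067, 532 and 273 against 79, 399, 330 and 223. These are the reprogramming factors, and tags from retroviral copies and from the genes themselves cannot be told apart. Khdc3, an oocyte and ES cell gene also called Ecat1, had a peak in 967B2 alone of the Aid+/+ clones (16 tags), and in all 4 Aid-/- clones (33, 16, 11 and 24 tags). The tags are few, and the edgeR test of its gene body gave an unadjusted p of 0.253. By pyrosequencing, the study found methylation of the Ecat1 promoter comparable between Aid+/+ and Aid-/- iPS cells. Of the fibroblast markers, Col1a1 had a promoter peak in all 8 clones and the other 5 in none.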

How the data were processed

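MBD-seq peak lists of the 8 iPS clones, and for a single comparison those of 3 ES lines and 3 Aid+/+ MEF cultures, were used as deposited. The authors, according to the labels and their methods, mapped tags with BWA (0.5.9rc1) to NCBI build 37 (mm9) and called peaks per sample with MACS, per the file headers in version 1.4.0rc2 or 1.4.1, without a control, at a p cutoff of 1e-05 and with at most 2 tags kept per position. The deposited count is the number of filtered tags in a peak. The deposited score is the −log10 of the peak's p-value, times 10, against the local background, and the deposited ratio is the fold enrichment over that background. Depth after filtering was 6.65 to 15.92 M tags, and weak peaks near the cutoff are the least certain.

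Genes came from GENCODE on the same build and composition from its sequence. High-CpG promoters had a 500 bp window with GC of at least 55% and an observed over expected CpG ratio above 0.75. Low-CpG promoters had no window with a ratio of 0.48 or more. Group means were compared by exact permutation (scipy 1.17.1). Tags were tested with edgeR 4.0.16 (R 4.3.3; TMM scaling, quasi-likelihood, BH adjustment, genes with a mean of 10 tags or more). DESeq2 1.42.0, limma 3.58.1 and other alternatives are given in the closing section. In data simulated for the 48078 regions, the test recovered 54% of regions changed 2-fold and 100% of those changed 4-fold. The simulation gave every region the same dispersion and held no effect of run or series, so these rates may not hold for the clones. Fold changes are Aid-/- over Aid+/+, and none is given where a genotype had no peak.

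Named were fixed genes of the study, regions and genes with adjusted p under 0.05 or filled up by lowest p (6 regions, 3 genes), DMRs holding under both definitions ranked by their weakest carrying peak, and members of each list with the lowest p. The members, lists and tests were chosen with earlier results of these data known. Results on some loci are not reported here.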

Additional observations from a re-analysis of the deposited data

Results flagged for a closer look

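In each genotype, a clone was marked where its gap to the nearest other clone took up most of the range of the 4 clones. Of 72 groups of 4 values examined, 8 were marked, where chance would mark about 1 in 20, or 3.6, of unlinked groups. These groups are linked, because many shares come from the same peaks of the same clones. The 2 numbers therefore cannot be compared as a test. Clone 967B2 stood above the other Aid+/+ clones in the share of promoter peaks (7.65%), the share of high-CpG promoters with a peak (5.84%) and the share of peaks on chromosome 5 (7.65%). Clone 981E1 stood below the other Aid-/- clones in the share of exon peaks (18%) and of intermediate-CpG promoters with a peak (16.6%). In both cases the clone is the one of its genotype that differs from the other 3 in processing run. On chromosome 2, 979B3 had the highest share of peaks among Aid+/+ clones (7.17%) and 981E4 the lowest among Aid-/- clones (6.87%). At the region near V1rd19, 979F3 had 9.66 tags per M of its scaled tags in the tested regions, below the other Aid-/- clones.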

How the results depend on the processing

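No paired analysis was possible because the replicate numbers are only the order of the samples; the series in the clone's name was the only block, and it links genotypes through series 979 alone. Limits are that processing run and genotype overlap in a single run, that most DMRs rest on peaks of fewer than 20 tags, and that calls change with the tool. The subset of run A for DMRs and tag tests was chosen after seeing the data. The alternative of protein-coding genes was not run for promoter classes, which already hold only these, and no test was made within run A for shares, where Aid+/+ is 1 clone. The cause of the changes below was not tested, apart from the smaller number of clones or peaks that an alternative holds by construction.

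Differences are Aid-/- minus Aid+/+. Within run A alone the difference in share turned to 0.866 points for introns, -0.654 for exons, -0.0788 for promoters and 0.068 for low-CpG promoters, and that in medians to -0.251 points of GC, -0.101 CpG per 100 bp and 19.3 bp of length. With peaks of p 1e-10 or less, intergenic peaks differed by 0.23 points. With the same number of strongest peaks per clone, low-CpG promoters differed by 0.034 points. Leaving out 1 clone gave differences of -0.516 to 0.0598 points between genes (above 0 without 967B4 or 979F3) and of -41 to 1.0 bp in length (above 0 without 979F3).

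Aid+/+ DMRs numbered 156 with equal numbers of peaks, 8244 in series 979, 3668 in run A and 309 to 1583 with 1 clone left out. Leaving out 967B2, 967B4, 979F1, 979F3 or 981E1 gave 1583, 502, 472, 487 or 595. Aid-/- DMRs numbered 15 with peaks of p 1e-10 or less, 2536 in series 979, 3850 in run A and 70 to 404 with 1 clone left out. Leaving out 967B2, 979B1, 979B3, 979F1, 979F3, 981E1 or 981E4 gave 269, 89, 140, 87, 93, 404 or 149.

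Calls at an adjusted p under 0.05 were 24 regions, 25 promoters and 15 gene bodies with DESeq2. With header tags as library size they were 12 regions and 0 promoters, and with the series block 0 regions and 0 promoters. With run A against all other clones as a covariate they were 2 regions and 0 promoters. This covariate pools runs B and C, which differ in genotype, so it does not adjust for a difference between these runs. Series 979 alone gave 1780 regions, 0 promoters and 1 gene body, and run A alone 0 regions and 0 promoters. Regions called were 0 with peak length as an offset, 0 with limma on log2 fold enrichment and 0 over regions with a peak in any clone, and promoters called were 2 without the tag filter. Leaving out 1 clone gave 0 to 28 regions (28 without 967B2, 0 without 979F3 or 981E4), 0 to 5 promoters (5 without 967B2, 0 without 979B1, 979B3, 979F1, 979F3 or 981E1) and 0 to 2 gene bodies (2 without 981E4, 1 without 967B2 or 967B4). The region near Vmn1r112 was the only named one to change direction, to 0.21 (log2) with limma on fold enrichment.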
